A study of Mus musculus with 6 samples.

Results

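Autophagy wraps part of the cell in a double membrane and delivers it to the lysosome, and the messenger RNAs of 39 genes that act in it were followed here in thymocytes of mice with a conditional knockout of Hspa9 (Hspa9 cKO). The 39 genes comprise 23 of the autophagy core, 7 mitophagy and cargo receptor genes, 2 transcription factors and 7 lysosomal genes. These genes were chosen by name for their roles, with earlier results of these data known. They were found by Ensembl gene ID, and 37 of the 39 had a level among 12235 genes with a level in all. RNA was sequenced from DN3 thymocytes of Hspa9 cKO mice and of WT mice, 3 libraries per genotype. The mice were 5 weeks old and untreated, and the cells were sorted for CD25 and against lineage markers, CD4, CD8 and CD44. Hspa9 encodes GRP75 (mortalin), an HSP70 chaperone in the matrix of mitochondria, and the series asked what GRP75 does in early thymocyte development. The sources used here do not name the promoter that drives Cre, the genetic background of the controls or the number of animals behind a library. P-values therefore measure only how far these libraries spread, and that spread may be technical.

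In macroautophagy, the ULK kinase complex starts the process, and the class III PI3 kinase complex then marks the site with a phosphoinositide lipid. Lipid transfer proteins and vesicles carrying ATG9 extend the membrane, and a pair of ubiquitin-like conjugation systems couples ATG8 proteins (the LC3 and GABARAP families) to it. Cargo receptors bind the ATG8 proteins and their load. In mitophagy the load is a mitochondrion, tagged by PINK1 and ubiquitin or carrying receptors such as BNIP3, NIX and FUNDC1 in its outer membrane, and the lysosome then digests it. T cells that lack the core genes Atg5 or Atg7 keep an excess of mitochondria, and maturing red cells clear theirs by way of NIX.

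The tables give FPKM (fragments per transcript, corrected for its length and for the size of the library) of transcript starts, ends and splicing events. The FPKM of a gene's starts were added up to give its level, and those of its ends where no library listed a start. Depth is unknown, since no counts are in the tables, and the 6 libraries listed between 87403 and 90970 distinct events. Hspa9 itself was altered in structure: transcripts that include the skipped exons made up 15.8 to 26.7% of the paired events in Hspa9 cKO libraries, against 86.1 to 100% in WT libraries. Its summed level was 109.7 to 123.5 FPKM in Hspa9 cKO libraries and 105.4 to 121.7 FPKM in WT libraries. All 12 DN3 markers were listed and 7 were called higher in Hspa9 cKO. Their summed level was 2833 to 3022 FPKM in Hspa9 cKO libraries, against 1863 to 2013 FPKM in WT libraries. Of 5 double-positive thymocyte markers, 2 were called lower, Cd8b1 among them, and the summed level was 28.2 to 31.1 FPKM in Hspa9 cKO and 28.6 to 33.4 FPKM in WT. The 6 DN1 and DN2 progenitor markers summed to 7.76 to 10.7 FPKM in Hspa9 cKO and 8.55 to 11.5 FPKM in WT, with 0 called. In bulk RNA, fewer cells of a type and less RNA per cell cannot be told apart.

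Across the list, 3 genes rose in Hspa9 cKO DN3 thymocytes and 0 fell among the 31 that could be tested. The 3 were Sqstm1, which encodes the cargo receptor p62, Bnip3l, which encodes the mitophagy receptor NIX, and Atg14, which directs the class III PI3 kinase to autophagy. Each rose by a log2 change of FPKM + 1 of 0.37 to 0.58. Calls were made with limma on log2(FPKM + 1), two-sided, for genes that reached 1 FPKM in at least 3 libraries, at a Benjamini-Hochberg adjusted p under 0.05 over 9198 genes. Of those 9198 genes, 773 (8.40%) were called higher and 516 (5.61%) lower, so 3 of 31 members (9.68%) is near the background. At an unadjusted p under 0.05, 9 of the 31 members were higher (29.0%; 19.1% of all genes) and 1 was lower (3.23%; 12.3% of all genes). The groups did not overlap for 10 members that were higher in Hspa9 cKO (32.3%; 23.2% of all genes) and for 1 that was lower (3.23%; 15.7% of all genes). The change was above 0 for 23 of the 31 (74.2%; 56.7% of all genes), although Atg2b, Fundc1 and Lamp1, close to 0, changed sign when the libraries were rescaled. The median log2 change was 0.20 over the 31 members and 0.06 over all genes tested. The 8 members with no test were Map1lc3b and Pink1, which have no event under their own gene ID, and Wipi1, Optn, Bnip3, Tfeb, Ctsd and Ctsl, whose listed level was too low.

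**Figure D1:**
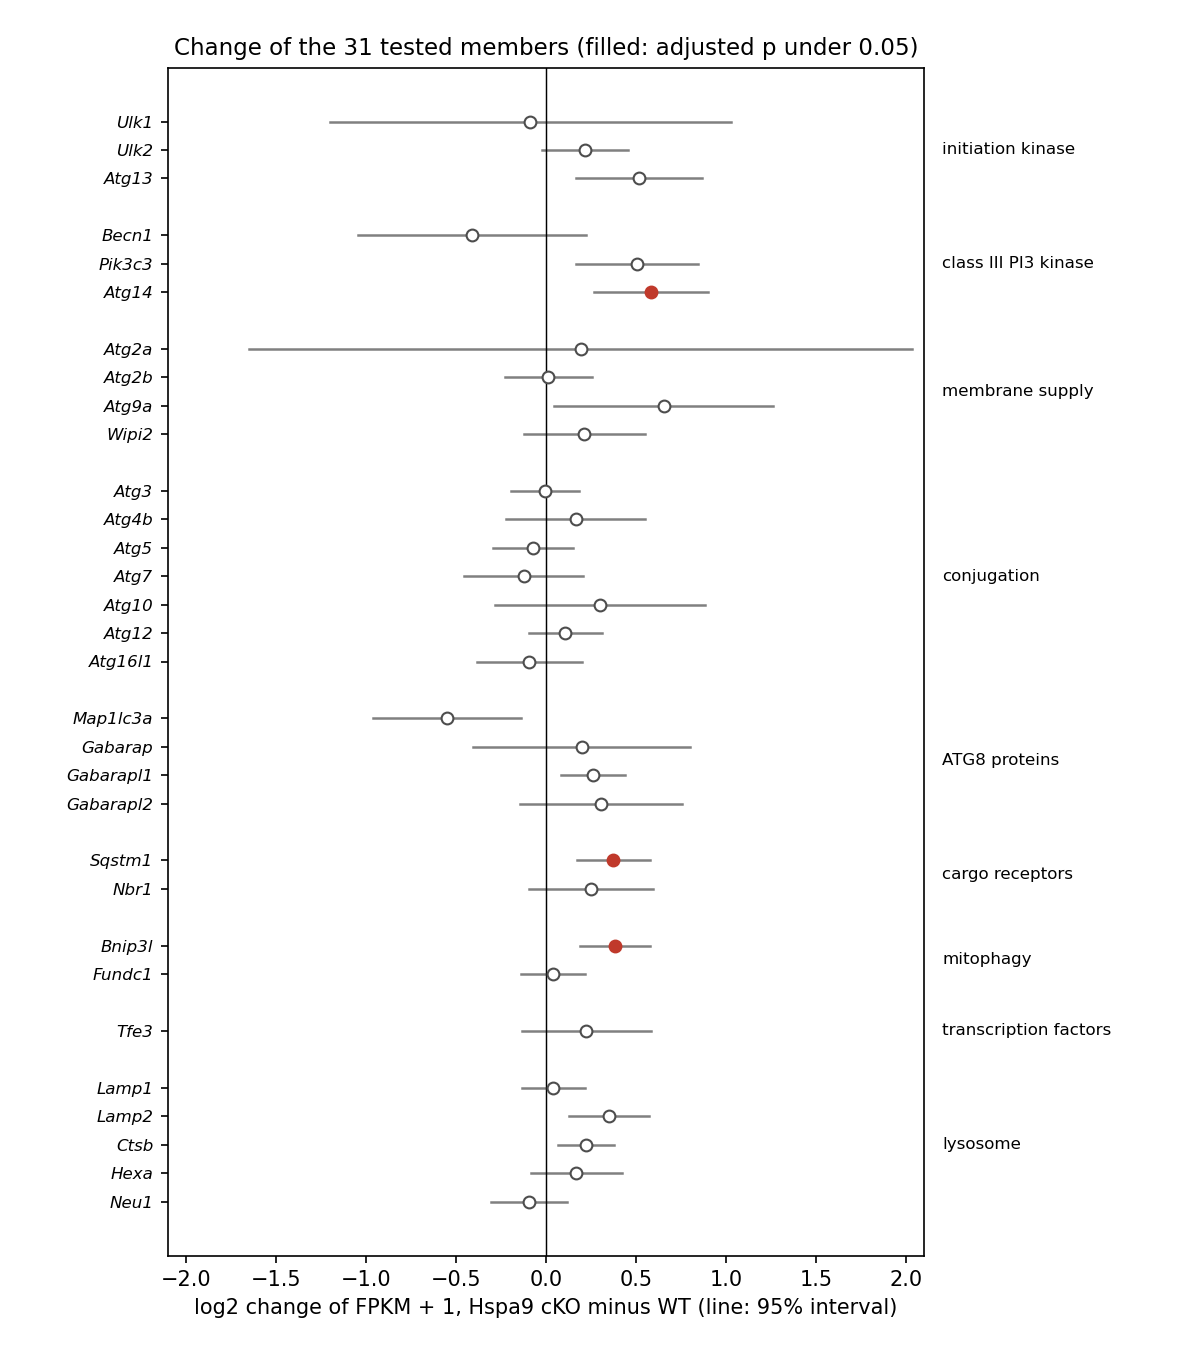
Log2 change of FPKM + 1 (Hspa9 cKO minus WT, horizontal axis) with its 95% confidence interval from limma for the 31 genes tested, ordered by role. Filled points mark Atg14, Sqstm1 and Bnip3l, the 3 genes with an adjusted p under 0.05, and Ulk1 and Atg2a have the widest intervals.

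The tables' gene IDs join some neighbouring genes, and for some genes they list ends but hardly any start. Each event was therefore also assigned by the exon edge it names in the GENCODE M21 annotation, and the starts or the ends were used, whichever had the higher mean. This annotation-matched level was chosen after the data were seen. It listed 38 of the 39 members and tested 34, with Sqstm1, Bnip3l and Atg14 again called higher and 0 called lower, against 8.49% and 5.53% of all genes. It is given for the members whose first level is thin or joined with a neighbour.

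**Figure D2:**
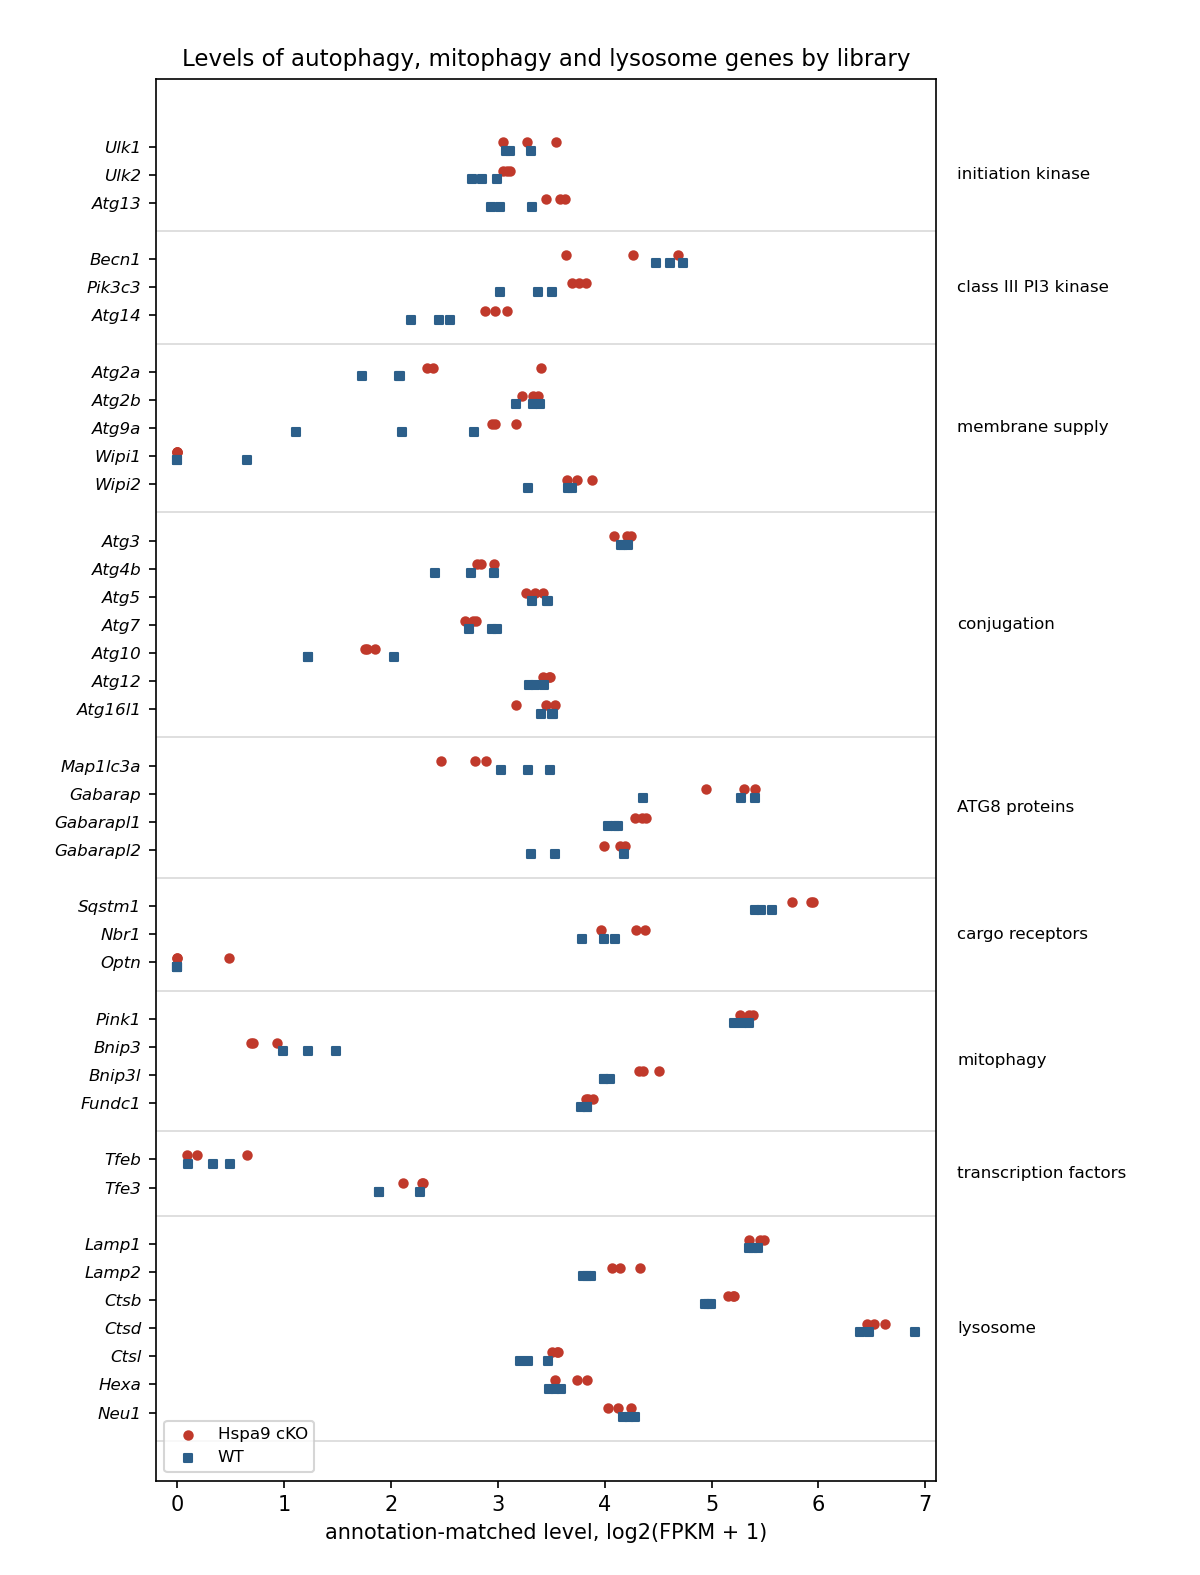
Annotation-matched level as log2(FPKM + 1) (horizontal axis) of the 38 listed genes in each library, with Hspa9 cKO as circles above WT as squares and genes grouped by role. Ctsd, at 82.7 to 118.3 FPKM, is the highest of them, while Wipi1, Optn and Tfeb lie near 0. The circles lie right of all squares for 12 of the 34 tested genes (35.3%; 23.3% of all genes), Atg14, Sqstm1 and Bnip3l among them.

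Of the 3 initiation kinase genes, 0 were called by limma, and 1, Atg13, had an unadjusted p under 0.05 (higher, as were 19.1% of all genes). Atg13 encodes the adaptor that tethers the ULK kinases to their scaffold. It was at 11.2, 10.9 and 9.80 FPKM in Hspa9 cKO libraries 1 to 3, against 6.13, 8.89 and 6.59 FPKM in WT libraries 1 to 3. Every Hspa9 cKO library was above every WT library, with a log2 change of 0.52 (SE 0.15; limma adjusted p = 0.0661). Without WT replicate 2, Atg13 was called (adjusted p = 0.0292). Ulk2, one of the paired kinases, was at 7.25 to 7.63 FPKM in Hspa9 cKO and 5.75 to 6.94 FPKM in WT, and its log2 change of 0.22 was not called (limma adjusted p = 0.193). Ulk1, its partner kinase, had start events at 0 in 1 library of each genotype. Its ends were at 8.64, 10.7 and 7.29 FPKM in Hspa9 cKO and 7.64, 8.92 and 7.42 FPKM in WT. The groups overlapped, and the log2 change of these annotation-matched ends was 0.12 with a 95% confidence interval of −0.24 to 0.49.

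Of the 3 class III PI3 kinase genes, Atg14 rose. Atg14 (ENSMUSG00000037526; mm10 chromosome 14, 47540893 to 47570649, minus strand), whose product recruits the kinase to the forming autophagosome, had end events but no start. Those ends were at 7.50, 6.87 and 6.35 FPKM in Hspa9 cKO libraries 1 to 3, against 4.46, 4.88 and 3.56 FPKM in WT libraries 1 to 3. All Hspa9 cKO libraries lay above all WT libraries, at 6.90 ± 0.577 FPKM in Hspa9 cKO and 4.30 ± 0.673 FPKM in WT (SD, n = 3 each). The log2 change of 0.58 (SE 0.13) was called (limma adjusted p = 0.0356). Pik3c3, which encodes the lipid kinase VPS34 itself, was at 13.7, 13.1 and 13.0 FPKM in Hspa9 cKO, against 9.88, 10.4 and 7.20 FPKM in WT. The groups lay apart, but the log2 change of 0.51 (SE 0.14) missed the threshold (limma adjusted p = 0.0636). Some starts under this ID are not its own, and its annotation-matched ends were at 13.2, 12.6 and 11.97 FPKM in Hspa9 cKO, against 9.38, 10.4 and 7.12 FPKM in WT. These groups also lay apart, with a log2 change of 0.46 (limma adjusted p = 0.0821). Becn1, which encodes the Beclin scaffold of the complex, was at 24.8, 11.5 and 18.2 FPKM in Hspa9 cKO and at 23.5, 21.3 and 25.6 FPKM in WT. Its Hspa9 cKO libraries had an SD of 6.65 FPKM around a mean of 18.2, with replicate 2 the lowest, and the log2 change of −0.41 was not called (limma adjusted p = 0.334). The call for Atg14 was lost without any library but WT replicate 2, with adjusted p-values between 0.0480 and 0.108 over the 6 omissions, and when a trend over transcript length was removed (adjusted p = 0.0538).

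Promoter sequences were taken from RefSeq (GRCm38.p6), which held 36 promoters for 32 of the 39 genes. Those of Atg14 (chr14:47568385-47568684, minus strand) and Sqstm1 (chr11:50210771-50211070, minus strand) are shown because both genes rose, and Bnip3l is named only. Each runs from 250 bases before to 50 bases after the start, 5′ to 3′, and capitals mark the letters CACGTG, the E-box core that MiT factors such as TFEB and TFE3 recognise.
Atg14: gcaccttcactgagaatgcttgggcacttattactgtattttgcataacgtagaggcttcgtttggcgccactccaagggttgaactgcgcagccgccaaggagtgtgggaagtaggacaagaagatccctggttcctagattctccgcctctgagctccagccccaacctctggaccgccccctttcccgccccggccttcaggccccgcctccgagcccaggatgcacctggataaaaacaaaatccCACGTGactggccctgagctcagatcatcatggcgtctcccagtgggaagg
Sqstm1: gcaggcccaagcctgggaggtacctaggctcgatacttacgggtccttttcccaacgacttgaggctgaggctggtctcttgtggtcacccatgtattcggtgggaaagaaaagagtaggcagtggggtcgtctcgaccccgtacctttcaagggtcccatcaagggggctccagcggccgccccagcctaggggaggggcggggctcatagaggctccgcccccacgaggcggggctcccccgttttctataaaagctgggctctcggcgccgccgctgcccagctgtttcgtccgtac
In Atg14 the letters lie at bases 250 to 255, and the Sqstm1 window holds none of the motifs searched. On both strands, CACGTG was found in 8 of the 36 member promoters and in 7.15% of 32851 promoters of the same length. The 8 were those of Atg3, Atg5, Atg7, Atg14, Bnip3, Ctsd, Ctsl and Lamp1, and of these genes only Atg14 was called. Bnip3, Ctsd and Ctsl had no test by the first level. With annotation-matched levels Ctsd and Ctsl were tested and not called, and Bnip3 again had no test. The longer CLEAR core TCACGTGA, which contains CACGTG, was found in 2 of the 36 (Atg3 and Ctsd) and in 0.974% of all promoters. The C/EBP-ATF element TGATGNAA was found in 1 of the 36 (Ctsl) and in 3.97% of all promoters. The antioxidant response element TGACNNNGC was found in 5 of the 36 (Atg13, Ctsd, Hexa, Map1lc3b and Ulk2) and in 12.4% of all promoters.

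Among the 5 membrane supply genes, 0 of the 4 tested were called by limma. Only 1, Atg9a, had an unadjusted p under 0.05 (higher, as were 19.1% of all genes). Atg9a, which encodes the scramblase in the vesicles that seed the membrane, was at 8.64, 11.6 and 9.13 FPKM in Hspa9 cKO libraries 1 to 3, against 5.95, 3.89 and 8.32 FPKM in WT libraries 1 to 3. Every Hspa9 cKO library was higher, but the WT libraries varied (SD 2.22 FPKM), and the log2 change of 0.65 was not called (limma adjusted p = 0.137). Some of these starts match a neighbouring gene. Atg9a's own annotation-matched starts were at 6.68, 8.02 and 6.87 FPKM in Hspa9 cKO and 3.29, 1.15 and 5.84 FPKM in WT, with a log2 change of 1.04 (limma adjusted p = 0.144). Atg2a, which encodes a lipid transfer protein, had starts at 0 in Hspa9 cKO replicate 3 and WT replicate 1. Its annotation-matched ends were at 4.25, 4.03 and 9.60 FPKM in Hspa9 cKO and 2.32, 3.23 and 3.22 FPKM in WT. The groups lay apart, with replicate 3 far above the other Hspa9 cKO libraries, and the log2 change of 0.75 was not called (limma adjusted p = 0.162). Wipi2, which encodes a reader of the phosphoinositide, was at 11.5 to 13.8 FPKM in Hspa9 cKO and 8.75 to 11.96 FPKM in WT (log2 change 0.21; limma adjusted p = 0.348). Its relative Wipi1 had a single listed value, 0.569 FPKM in WT replicate 1.

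The level of Atg2b, the paralogue of Atg2a, showed little difference, at 9.37, 9.07 and 8.36 FPKM in Hspa9 cKO and 9.04, 9.53 and 7.98 FPKM in WT (log2 change 0.01; 95% confidence interval −0.23 to 0.26). The values of one exon lay apart between the genotypes. It was chosen for description after its values were seen. This is coding exon 37 of 42 (mm10 chr12:105623915-105623984, minus strand), and its 70 bases are not a multiple of the codon length. It is shown in capitals between 15 bases of each neighbouring exon, as they lie in the spliced GENCODE M21 transcript, because it carries the splicing ratio nearest to the threshold among the members.
Atg2b exon: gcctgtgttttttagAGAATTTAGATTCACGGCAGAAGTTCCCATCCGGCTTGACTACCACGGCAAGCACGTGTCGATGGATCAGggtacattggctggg
The including event was at 8.55, 8.39 and 7.39 FPKM in Hspa9 cKO libraries 1 to 3, against 6.24, 6.48 and 5.81 FPKM in WT libraries 1 to 3. The skipping event was listed at 0 in all 3 Hspa9 cKO libraries and at 2.45, 2.39 and 1.60 FPKM in the WT libraries. Inclusion was therefore 100% in each Hspa9 cKO library, against 71.8, 73.1 and 78.5% in the WT libraries. The ratio (inclusion + 1)/(skipping + 1) had a log2 change of 1.98 (SE 0.26), just outside the threshold over 9457 splicing ratios (limma adjusted p = 0.0564). It passed at a pseudocount of 0.1 (log2 change 4.85; adjusted p = 0.0266), and with single libraries left out the adjusted p lay between 0.114 and 0.226. An event at 0 in these tables can be a failed estimate.

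**Figure D3:**
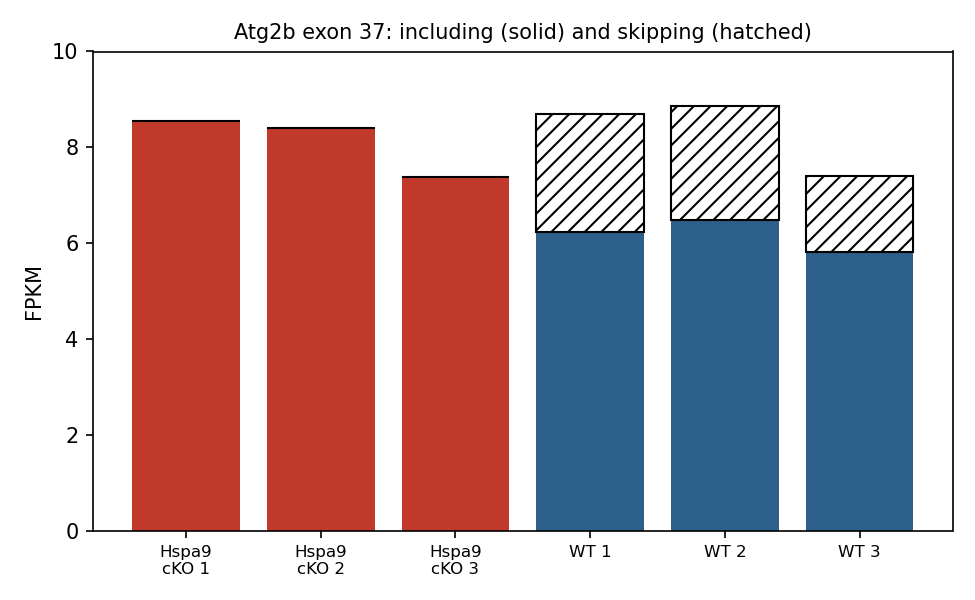
FPKM of the Atg2b events that include (solid) and skip (hatched) exon 37 in each library, with Hspa9 cKO left of WT. The stacked totals are alike, and a hatched part, 1.60 to 2.45 FPKM, is seen in the 3 WT bars and in none of the Hspa9 cKO bars.

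Of the 7 conjugation genes, 0 were called by limma, 0 had an unadjusted p under 0.05 and 0 had groups that lay apart. Their changes split into 3 above and 4 below 0 with a median of −0.00. For comparison, 8.40% of all genes were called higher and 5.61% lower, and 38.9% had groups that lay apart. At an unadjusted p under 0.05, 19.1% of all genes were higher and 12.3% lower, and 56.7% had a change above 0. Whether the 7 genes differ from all genes was not tested. Atg3, whose product transfers ATG8 proteins to lipid, was at 17.4, 15.9 and 18.0 FPKM in Hspa9 cKO and 17.1, 17.6 and 16.8 FPKM in WT. Its 95% confidence interval for the log2 change ran from −0.19 to 0.19. Atg5, Atg12 and Atg16l1, which form the conjugate that places ATG8 proteins on the membrane, had log2 changes of −0.07, 0.11 and −0.09. Atg7, the activating enzyme of both systems, had a log2 change of −0.12. Atg10, which joins ATG12 to ATG5, was low, at 2.38 to 2.61 FPKM in Hspa9 cKO and 1.34 to 3.08 FPKM in WT (log2 change 0.30; limma adjusted p = 0.440). Atg4b, which encodes the protease that primes and releases ATG8 proteins, was at 6.004 to 6.79 FPKM in Hspa9 cKO and 4.31 to 6.80 FPKM in WT (log2 change 0.16; limma adjusted p = 0.525).

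Of the 4 ATG8 genes tested, 0 were called by limma, and 1 in each direction had an unadjusted p under 0.05. At that p, 19.1% of all genes were higher and 12.3% lower. Map1lc3a, which encodes an LC3 protein, was the only member whose Hspa9 cKO libraries all lay below the WT libraries among those tested. It was at 5.92, 4.53 and 6.41 FPKM in Hspa9 cKO libraries 1 to 3, against 7.14, 10.2 and 8.73 FPKM in WT libraries 1 to 3. The log2 change of starts was −0.55 with a standard error of 0.17 and was not called (limma adjusted p = 0.0834), whereas that of ends, −0.51, was (adjusted p = 0.0484). Gabarapl1, which encodes a GABARAP-family ATG8 protein, was at 19.9, 19.4 and 18.5 FPKM in Hspa9 cKO, against 16.4, 16.04 and 15.3 FPKM in WT. All Hspa9 cKO libraries were above all WT libraries, with a log2 change of 0.26 and a standard error of 0.07 (limma adjusted p = 0.0648). Its relative Gabarapl2 was at 15.5, 14.1 and 15.4 FPKM in Hspa9 cKO and 9.45, 16.1 and 11.2 FPKM in WT, overlapping groups with a log2 change of 0.30 (limma adjusted p = 0.314). The gene ID of Gabarap also holds starts of its neighbour Ctdnep1, at 20.7 to 28.3 FPKM for the main one. Gabarap's own ends were at 38.4, 41.4 and 29.8 FPKM in Hspa9 cKO and 19.6, 41.4 and 37.6 FPKM in WT. These annotation-matched groups overlapped, with WT replicate 1 the lowest, and the log2 change of 0.20 was not called (limma adjusted p = 0.677). Map1lc3b, the LC3 gene most often followed in assays of autophagy, has no event in the tables, which says nothing of its expression.

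Of the cargo receptors, Sqstm1 rose. Sqstm1 (ENSMUSG00000015837; mm10 chromosome 11, 50199366 to 50210827, minus strand) encodes p62, which links ubiquitin-tagged cargo to ATG8 proteins and is itself degraded with it. It was at 60.1, 52.6 and 57.6 FPKM in Hspa9 cKO libraries 1 to 3, against 43.1, 41.3 and 46.3 FPKM in WT libraries 1 to 3. The lowest Hspa9 cKO library was above the highest WT library, at 56.8 ± 3.80 FPKM in Hspa9 cKO and 43.6 ± 2.49 FPKM in WT (SD, n = 3 each). The log2 change of 0.37 (SE 0.08) was called (limma adjusted p = 0.0352), a ratio of 1.30 on the FPKM + 1 scale. Nbr1, which encodes a related receptor, was at 14.6, 19.8 and 18.6 FPKM in Hspa9 cKO and 12.8, 14.9 and 16.1 FPKM in WT. Its groups overlapped, and the log2 change of 0.25 was not called (limma adjusted p = 0.286). Optn, which encodes optineurin, a receptor for ubiquitin-tagged mitochondria, was listed in Hspa9 cKO replicate 2 alone, at 0.395 FPKM. Leaving out any one of the 6 libraries ended the call for Sqstm1 (adjusted p 0.0534 to 0.108), as did rescaling by trimmed means (adjusted p = 0.0561).

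Of the 4 mitophagy genes, Bnip3l rose. Bnip3l (ENSMUSG00000022051; mm10 chromosome 14, 66985239 to 67008877, minus strand) encodes NIX, an outer membrane receptor that binds ATG8 proteins directly. It was at 21.7, 19.5 and 19.02 FPKM in Hspa9 cKO libraries 1 to 3, against 15.6, 14.97 and 14.9 FPKM in WT libraries 1 to 3. The groups lay well apart, at 20.1 ± 1.42 FPKM in Hspa9 cKO and 15.2 ± 0.355 FPKM in WT (SD, n = 3 each), and the log2 change of 0.38 (SE 0.08) was called (limma adjusted p = 0.0303). Of 7 erythroid markers, 6 were listed, and 2 of the 4 tested, Hba-a2 and Hbb-bt, were called lower. Their summed level was 54.0 to 70.8 FPKM in Hspa9 cKO and 75.7 to 107.9 FPKM in WT, and their part in the level of Bnip3l was not tested. Bnip3, which encodes the related receptor, stood at 0.615, 0.908 and 0.633 FPKM in Hspa9 cKO, against 1.79, 0.986 and 1.33 FPKM in WT. Every Hspa9 cKO library was below every WT library, but the level was under the filter, so it was not tested. Fundc1, which encodes the third of the receptors, was at 13.1, 13.4 and 13.8 FPKM in Hspa9 cKO and 12.7, 13.3 and 13.2 FPKM in WT (log2 change 0.04; 95% confidence interval −0.14 to 0.21). Pink1, which encodes the kinase that senses damaged mitochondria, has an end filed under a small RNA gene nested in it. Matched by exon edge, that end was at 39.8, 37.5 and 40.7 FPKM in Hspa9 cKO and 38.1, 39.8 and 36.0 FPKM in WT, overlapping groups with a log2 change of 0.05 (limma adjusted p = 0.676; 95% confidence interval −0.13 to 0.23). Leaving out any one of the 6 libraries ended the call for Bnip3l, with adjusted p-values between 0.0678 and 0.0859.

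**Figure D4:**
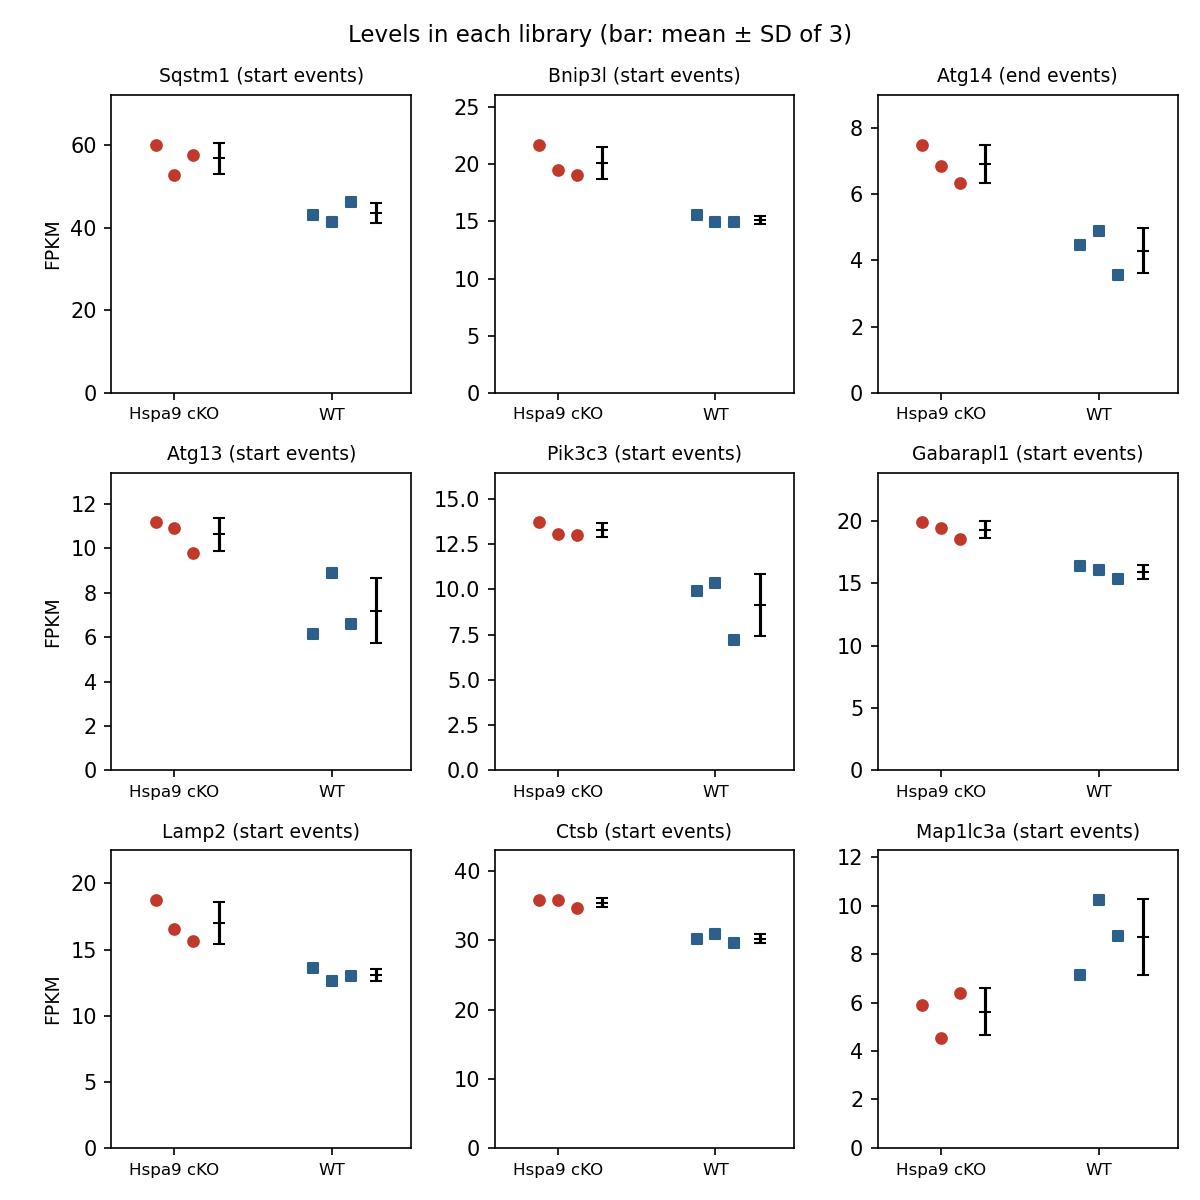
FPKM (vertical axis, from 0) of 9 of the genes in each library, with Hspa9 cKO as circles left of WT as squares and bars for the mean ± SD of 3 libraries. Sqstm1, Bnip3l and Atg14 were called higher, and for the other 6 the groups lie apart without passing the threshold, Map1lc3a being the lower one in Hspa9 cKO. The 9 are all from the tested members whose groups lie apart, as they do for 38.9% of all genes, and Ulk2 and Atg9a, also apart, are not shown.

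The transcription factors that control many lysosomal genes were low. Tfe3 was at 3.32 to 3.93 FPKM in Hspa9 cKO and 2.69 to 3.82 FPKM in WT (log2 change 0.22; limma adjusted p = 0.352). Tfeb was at 0.0667 to 0.574 FPKM in Hspa9 cKO and 0.0683 to 0.405 FPKM in WT and was not tested.

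Of the 5 lysosomal genes tested, 0 were called by limma. Lamp2 and Ctsb, 2 of the 5, were higher at an unadjusted p under 0.05, as were 19.1% of all genes. Lamp2, which encodes a membrane protein of the lysosome that also serves chaperone-mediated autophagy, was at 18.8, 16.5 and 15.7 FPKM in Hspa9 cKO libraries 1 to 3, against 13.6, 12.6 and 13.0 FPKM in WT libraries 1 to 3. The groups lay apart, and the log2 change of 0.35 (SE 0.09) fell just short of a call (limma adjusted p = 0.0543), which it gained when only genes at 5 FPKM or more were tested (adjusted p = 0.0499). Ctsb, which encodes the cysteine protease cathepsin B, was at 35.8, 35.9 and 34.7 FPKM in Hspa9 cKO, against 30.3, 30.9 and 29.6 FPKM in WT. The replicates were tight and the groups apart, with a log2 change of 0.22 and a standard error of 0.06 (limma adjusted p = 0.0706). Ctsl, the gene of cathepsin L, had almost no start. Its annotation-matched ends were at 10.8, 10.7 and 10.3 FPKM in Hspa9 cKO and 10.05, 8.24 and 8.73 FPKM in WT, groups apart with a log2 change of 0.22 (limma adjusted p = 0.185). Ctsd, the gene of the aspartic protease cathepsin D, was the most abundant member. The only start under its ID belongs to Ifitm10, and its annotation-matched ends were at 86.7, 90.9 and 97.3 FPKM in Hspa9 cKO and 82.7, 118.3 and 87.7 FPKM in WT. These overlapped (log2 change −0.05; limma adjusted p = 0.836). Lamp1, the other abundant membrane protein, was at 42.7, 39.8 and 43.9 FPKM in Hspa9 cKO and 40.8, 39.9 and 42.1 FPKM in WT, with a log2 change of 0.04 and a 95% confidence interval of −0.13 to 0.21. The glycosidase genes Hexa and Neu1 had log2 changes of 0.17 and −0.09 (limma adjusted p = 0.321 and 0.502).

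Markers of other cell types were read beside these levels, and their part in the results was not tested. Of 10 macrophage and monocyte markers, 5 were listed and 0 were called, and Adgre1, Cd14, Fcgr1 and Mertk were among those at 0 in all 6 libraries. The list summed to 13.8 to 15.95 FPKM in Hspa9 cKO and 8.92 to 15.02 FPKM in WT, nearly all of it Lyz2. Of 8 dendritic cell markers, Flt3, Xcr1 and Siglech were at 0, and the list summed to 8.71 to 8.95 FPKM in Hspa9 cKO and 6.40 to 11.4 FPKM in WT with 0 called. Of 5 granulocyte markers, S100a8 alone was listed, at up to 0.0879 FPKM in Hspa9 cKO and up to 0.428 FPKM in WT. Among B cell markers, Cd79a, Ms4a1 and Pax5 were at 0 and Cd79b was called higher, with list sums of 71.3 to 74.9 FPKM in Hspa9 cKO and 45.7 to 102.3 FPKM in WT. Among natural killer and innate lymphoid markers, Ncr1, Klrb1c, Tbx21 and Eomes were at 0 and Nkg7 was called higher, with list sums of 57.5 to 61.6 FPKM in Hspa9 cKO and 29.6 to 32.9 FPKM in WT. Among thymic epithelium markers, Krt5, Krt8, Foxn1 and Psmb11 were at 0 and Epcam was called higher, with list sums of 36.7 to 43.0 FPKM in Hspa9 cKO and 27.2 to 29.1 FPKM in WT.

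The 3 main classes were then set side by side, where 8.40% of all genes were called higher and the median log2 change of all genes was 0.06. Of the mitophagy and cargo receptor genes, 2 of 4 tested (7 in all) were called higher, with a median log2 change of 0.31. Of the autophagy core, 1 of 21 tested (23 in all) was called higher, with a median of 0.19. Of the lysosomal genes, 0 of 5 tested (7 in all) were called, with a median of 0.17. With annotation-matched levels these were 2 of 5, 1 of 21 and 0 of 7, and the medians were 0.25, 0.20 and 0.17, where 8.49% of all genes were called higher with a median of 0.06. The genes passed a filter on level before they were counted, and the difference between classes was not tested.

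A wider set of 138 other genes of the same pathways, in 6 lists, had shares of calls below those of all genes: of 117 tested, 6 rose (5.13%; 8.40% of all genes) and 4 fell (3.42%; 5.61% of all genes). The median log2 change was 0.10 over the 117 and 0.06 over all genes tested. Among 17 other core genes, Trp53inp2, whose product shuttles from the nucleus to the forming autophagosome, fell. It was at 0.284, 0.902 and 0.342 FPKM in Hspa9 cKO libraries 1 to 3, against 3.53, 2.995 and 2.72 FPKM in WT libraries 1 to 3. The groups lay apart (log2 change −1.45, SE 0.19; limma adjusted p = 0.00804). All 3 Hspa9 cKO values lie near the floor, under 1 FPKM, so Trp53inp2 passed the filter only through the WT libraries, where it is high. Among 21 other mitophagy genes, Phb2 (prohibitin of the inner membrane), Vdac1 (the outer membrane channel) and Tomm7 (an import subunit that holds PINK1 at the outer membrane) fell, with log2 changes of −0.50, −0.58 and −0.40. Phb2 was at 69.0 to 83.2 FPKM in Hspa9 cKO, against 104.6 to 114.8 FPKM in WT. In the same list Calcoco1, which encodes an ATG8-binding receptor, and Fbxl4, whose product limits NIX-dependent mitophagy, rose by log2 changes of 0.40 and 0.56. Among 31 other lysosomal genes 3 rose and 0 fell, among them Naglu, which encodes an enzyme that breaks down heparan sulfate, and Grn, the progranulin gene, with log2 changes of 0.54 and 0.60. Of 15 vacuolar ATPase genes, Atp6v1g1 rose by 0.30. The 12 autophagosome-lysosome fusion genes and the 21 genes of mTORC1, AMPK and MiT control had 0 calls by limma. At an unadjusted p under 0.05, 3 of the fusion genes (25.0%) and 2 of the control genes (9.52%) were higher, against 19.1% of all genes. The filter was applied once, to all libraries together, before any was left out. Without any of the WT libraries Trp53inp2 would not have met it, so its adjusted p over the omissions (0.0140 to 0.0359) is no support for its call. The other called genes named, at adjusted p 0.0186 to 0.0484 with all libraries, lost their calls. Tomm7 kept it only without WT replicate 2 or 3, Naglu without WT replicate 1 or 2, Grn without WT replicate 2 and Phb2 without Hspa9 cKO replicate 1, and adjusted p-values reached 0.123. At least 1 of the rescalings or the removal of the length trend ended the calls of Atp6v1g1, Fbxl4 and Grn. Testing without the filter ended those of Grn and Vdac1, and a pseudocount of 0.1 and starts by exon edge that of Vdac1.

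Apart from levels, the choice of starts, ends and exons under the members' gene IDs gave no call. Of 80 start and end events under the IDs of 22 members, 0 were called by limma (0.258% of 20188 events over all genes). Some of these events belong to neighbours, such as starts of Ctdnep1 under Gabarap. An unadjusted p under 0.05 was seen for 5, all of them starts under Bnip3l or Atg9a. Among them, a start under Atg9a (limma unadjusted p = 0.0428) was not matched to Atg9a by exon edge. Of 40 splicing ratios from 15 members, 0 were called (0.233% of 9457 ratios over all genes), and 2 had an unadjusted p under 0.05, the Atg2b exon and an exon of Atg13. The share of all events or ratios at that unadjusted p is not given here, so no excess can be read from the counts of 5 and 2. Starts or ends of the same gene are measured against each other, so they are not independent tests. The Atg13 exon, 78 bases long, was included at 100% in each Hspa9 cKO library and at 88.0, 100 and 90.3% in the WT libraries (limma adjusted p = 0.479).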

How the data were processed

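RNA was sequenced from DN3 thymocytes of Hspa9 cKO and WT mice, 3 libraries each, grouped by sample title. Per the labels' protocols, messenger RNA was enriched with a poly(A) or an rRNA removal kit; the sources used here do not say which. Trimming with cutadapt 1.9.1 and build mm10 are taken from the submitters' processing notes. Aligner, assembler and annotation were not given in the sources used here. Each transcript-structure event has 1 FPKM value in the deposited tables, per the file headers, which depends on how reads were divided among isoforms. Unlisted events were set to 0. Repeated events were dropped.

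Levels, start and end usage and splicing ratios were tested with limma 3.58.1 in R 4.3.3, with trended, robust variances, on log2(FPKM + 1) or on log2 ratios of FPKM + 1 from genes or pairs with a mean of at least 5 FPKM. The limma fits were tested on simulated data. Intervals are 95% confidence intervals. All 39 members, each called gene of the wider lists (at most 3 per list and direction) and cell type markers as counts and sums were named. A few genes of these lists are not reported here. Marker levels are annotation-matched. The members and lists were chosen with earlier results of these data known. Alternatives were a replicate block, other filters, pseudocounts and scalings, end events, exon-edge assignment and leaving out each library.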

Additional observations from a re-analysis of the deposited data

How the results depend on the processing

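The count of members called higher, 3 of 31, stayed within 2 and 4 under the other filters, pseudocount, scalings and event choices. It was 0 with a replicate block and lay between 0 and 2 when single libraries were left out. The count called lower was 0, except with end events (1, Map1lc3a). The count of all genes called was 1289, 245 with the replicate block and 515 to 841 with a library left out. Rescaling by trimmed means gave 614 higher and 689 lower calls, median ratios 649 and 619, and removal of the length trend 605 and 704, against 773 and 516 as deposited. Of the splicing ratios of members, 1 was called at a pseudocount of 0.1 (Atg2b) and 0 otherwise. Libraries with the same replicate number shared no clear deviation: same-numbered deviations correlated at 0.02, −0.02 and −0.02, and not every library correlated best with its own number. These correlations cannot show whether the libraries were prepared in pairs. Under the block, Sqstm1, Bnip3l and Atg14 had adjusted p-values of 0.0879, 0.0915 and 0.0796, Trp53inp2 had 0.0522, and the 9 other called genes of the wider lists lost their calls. Members close to 0, none of them called, changed sign. Ulk1 was at 0.12 with ends, or with the higher of starts and ends by either assignment. Atg2b was at −0.044 with trimmed means, −0.025 with median ratios and −0.10 without the length trend. Fundc1 was at −0.022 and −0.0029, and Lamp1 at −0.022 and −0.0019, under the same 2 rescalings, and Lamp1 at −0.031 without the length trend. With single libraries left out, log2 changes spanned −0.46 to 0.25 for Ulk1, −0.40 to 0.88 for Atg2a, −0.052 to 0.064 for Atg2b, −0.038 to 0.044 for Atg3, −0.17 to 0.015 for Atg16l1 and −0.086 to 0.35 for Gabarap. Of 692 values of 42 genes and ratios under alternatives, 576 kept direction and call, 89 lost a call, 4 gained one and 23 changed sign; of the lost calls, 63 came from omitting a library. The causes were not tested. Depth is unknown, so no counting error can be given.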

Other observations

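Lamp2 has alternative last exons, which give the protein different tails, and its ends are described here because of their level, chosen after the values were seen. The end at chrX:38419507-38421851 (mm10, minus strand) was at 12.7, 11.1 and 12.4 FPKM in Hspa9 cKO libraries 1 to 3, against 8.94, 11.1 and 9.02 FPKM in WT libraries 1 to 3. The end at chrX:38405062-38405571 was at 6.04, 5.20 and 3.27 FPKM in Hspa9 cKO and 4.30, 1.48 and 4.004 FPKM in WT. The groups overlapped for both ends, and the share of neither was called (log2 changes of the ratio −0.16 and 0.22; limma adjusted p = 0.920 and 0.888).

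Becn1 was nearly all one start, at 24.1, 10.1 and 17.2 FPKM in Hspa9 cKO and 22.6, 20.2 and 24.8 FPKM in WT, so the low value of Hspa9 cKO replicate 2 lies in that start. The annotated start of Gabarap was at 4.76 FPKM in WT replicate 1, where its end was at 19.6 FPKM, whereas in the other 5 libraries start and end had the same value. Both were chosen after their values were seen.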
